A study of Mus musculus with 6 samples.

Results

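The muscle-specific miRNAs, also known as myomiRs, were described in embryonic mouse cardiomyocytes (EMCMs) profiled by miRNA-Seq. They were taken by name as every entry numbered miR-1, miR-133, miR-206, miR-208 or miR-499, with any letter, strand or copy mark. This gave 15 of the 689 miRNA names in the deposited table, which belong to miR-1, miR-133a, miR-133b, miR-206, miR-208a, miR-208b and miR-499. The cells were wild-type cardiomyocytes from E16.5 embryos, labelled as Swiss Webster in the sample records and as CD1 in the methods, and were grown on collagen-coated flexible membranes. In the labels, 3 samples were kept static and 3 were stretched by 16% at 1 Hz, both for 24 hours, whereas the methods state 6 samples per condition.

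The table holds 1 abundance per miRNA, in a column that names no sample or condition. It was read as the authors' mean over the static and stretched libraries together, which neither the file nor the methods state, and all values below are levels on that reading. The values of single libraries and of each condition were not analysed here, so no replicate error can be given, no difference between static and stretched EMCMs is described, and the depth of each sample is unknown. Neighbours in an order of levels can accordingly not be told apart by their spread. The authors' mean, deposited on a log scale, was converted to reads per 1000000 miRNA reads (RPM). The mature miRNAs with a sequence at hand are 21 to 23 bases long, so RPM values were compared between miRNAs without a correction for length. Ligation and PCR make RPM a share of reads, not of molecules, so all folds between miRNAs below are folds of reads.

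miRNAs are cut from hairpin precursors. One strand of the resulting duplex, the main strand, is usually kept by Argonaute proteins, while the opposite strand, marked with an asterisk in older names, is mostly lost. The kept strand pairs with target mRNAs through its seed, bases 2 to 8, and lowers their translation or stability. In striated muscle, miR-1 and miR-133a are made from shared transcripts and restrain cardiomyocyte proliferation, miR-206 and miR-133b form a similar pair known from skeletal muscle, and miR-208a, miR-208b and miR-499 are carried in introns of myosin heavy chain genes.

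miR-1a and miR-206 are known as members of 1 seed family, as are miR-133a and miR-133b. The mature sequences that RefSeq (GRCm38.p6) gave for 5 of the 8 main strands are shown to set the families apart, with the seed in capitals (5′ to 3′). Those of miR-1a, miR-133a and miR-1b-3p are not shown.
miR-208b: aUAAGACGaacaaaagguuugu
miR-208a-3p: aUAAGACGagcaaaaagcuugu
miR-499: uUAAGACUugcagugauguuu
miR-133b: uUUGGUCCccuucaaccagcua
miR-206: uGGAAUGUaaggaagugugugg

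miR-208a-3p and miR-208b had the same seed. They differed at 3 of 22 positions, counted from 1 at the 5′ end with the base of miR-208a-3p first: G10A, A16G and C18U. Their longest shared run was 9 bases, shorter than the shortest tag of 18 nt that the authors kept, so no full-length tag belongs to both without a mismatch. The seed of miR-499 matched that of the miR-208 pair in all but its last base, while 12 of 21 aligned bases of miR-499 were identical to miR-208a-3p and 10 of 21 to miR-208b. Among the sequences searched, which did not include miR-1a, miR-6349 and miR-6382 shared the seed of miR-206, and neither is among the names of the deposited table.

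The miRNAs of the myosin introns made up most of the muscle-specific reads. The 14 names with a usable share summed to 1.51% of the miRNA reads, or 15088 RPM. miR-208 and miR-499 contributed 12818 RPM, which was 85.0% of that sum, and miR-1, miR-133 and miR-206 contributed 2271 RPM, or 15.0%. A single strand, miR-208b, accounted for 77.8% of the sum. Main strands held 99.2% of the muscle-specific reads and opposite strands 0.831%.

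**Figure D1:**
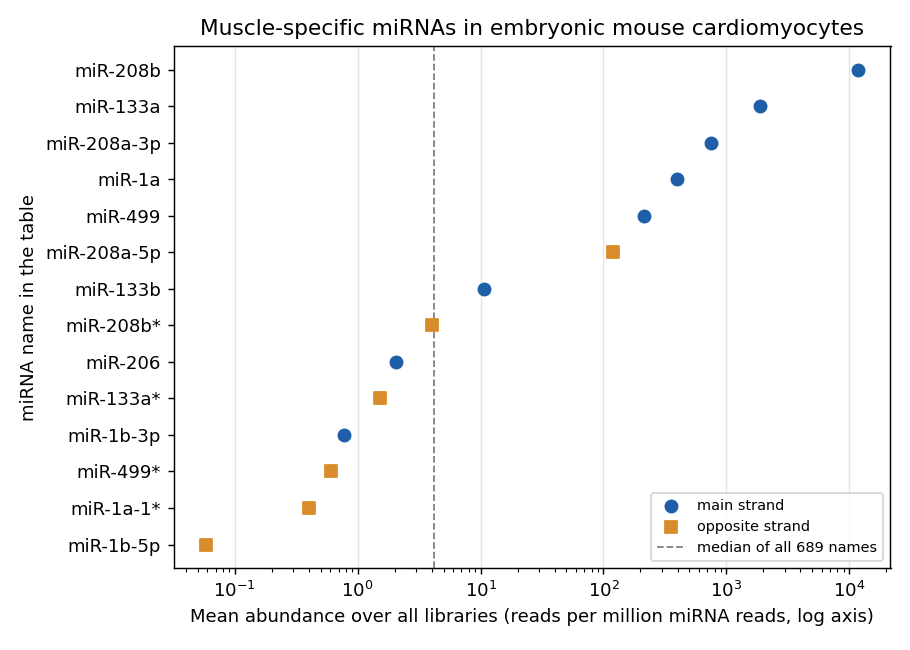
Mean abundance of the 14 muscle-specific names with a usable share, in RPM on a log axis. Circles are main strands, squares are opposite strands, and the dashed line is the median of all 689 names (4.20 RPM). miR-208b stands at 11734 RPM and miR-1b-5p at 0.0589 RPM.

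miR-208b, encoded within Myh7, the slow myosin heavy chain that predominates in the ventricle before birth, was the leading muscle-specific miRNA. Its abundance was 11734 RPM, or 1.17% of the miRNA reads, and it ranked 15 of 689, between miR-125a-5p at 12268 RPM and miR-181a at 10866 RPM. In GRCm38, Mir208b lies on the minus strand of chromosome 14 from 54975700 to 54975776, in an intron of Myh7. miR-208a-3p, from an intron of Myh6, the fast myosin heavy chain that takes over after birth in mice, was at 747 RPM and ranked 67, next to miR-29a at 750 RPM and miR-484 at 726 RPM. Mir208a lies on the same strand from 54949060 to 54949142, separated from Mir208b by 26557 bases. miR-208b was thus 15.7-fold more abundant than its close relative. miR-208a is known for its part in stress-dependent growth of the heart and in the control of slow myosin.

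miR-499, carried by Myh7b and linked to the slow muscle program, was the lowest of the 3 myosin-intron main strands at 214 RPM and ranked 118, between miR-21* at 218 RPM and miR-328 at 209 RPM. Mir499 lies on the plus strand of chromosome 2 from 155622880 to 155622958, in an intron of Myh7b. The level of miR-208b was 54.8-fold higher than that of miR-499, and miR-208a-3p was 3.49-fold higher.

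miR-133a, which restrains cardiomyocyte proliferation and smooth muscle genes in the heart, was the second most abundant member. It was at 1860 RPM, or 0.186% of the miRNA reads, and ranked 44, between miR-192 at 1867 RPM and miR-434-3p at 1810 RPM. miR-1a, its partner from the same transcripts and a repressor of genes of cardiac growth, was at 395 RPM and ranked 90, with miR-30a* at 407 RPM above it and miR-361 at 383 RPM below it. miR-133a was 4.71-fold more abundant than miR-1a. One hairpin of each lies on the plus strand of chromosome 2 in GRCm38, Mir1a-1 from 180389048 to 180389124 and Mir133a-2 from 180398379 to 180398482, with 9254 bases between them. In GENCODE, no gene other than miRNA genes fully contained either of them. Overlap with other miRNA genes was not looked for. Each of these miRNAs has a further hairpin copy, and the mature strand does not tell the copies apart.

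The pair known from skeletal muscle was at lower levels than miR-1a and miR-133a. miR-206, which is involved in muscle regeneration and the upkeep of nerve-muscle contacts, was at 2.06 RPM and ranked 399, between miR-344b at 2.06 RPM and miR-466a-3p at 2.05 RPM. miR-133b was at 10.6 RPM and ranked 289, between miR-3102 at 10.6 RPM and miR-345-5p at 10.5 RPM. Mir206 and Mir133b lie on the plus strand of chromosome 1 from 20679010 to 20679082 and from 20682769 to 20682887, with 3686 bases between them, and both overlap an exon of the lincRNA Gm28653. miR-1a was 192-fold more abundant than miR-206, and miR-133a was 175-fold more abundant than miR-133b. Within the skeletal pair, miR-133b exceeded miR-206 by 5.17-fold, close in size to the 4.71-fold excess of miR-133a over miR-1a. Both differences lack a replicate error and were not tested against each other. Reads were assigned by the authors with Bowtie2, and how tags that match several related miRNAs were shared out is not given in the sources used here, which bears most on the low members of families with an abundant relative. miR-1b-3p, the remaining main strand, was at 0.782 RPM and ranked 460, between miR-5128 at 0.783 RPM and miR-15a* at 0.776 RPM. It was 505-fold below miR-1a, and whether it shares the seed of miR-1a was not checked here.

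**Figure D2:**
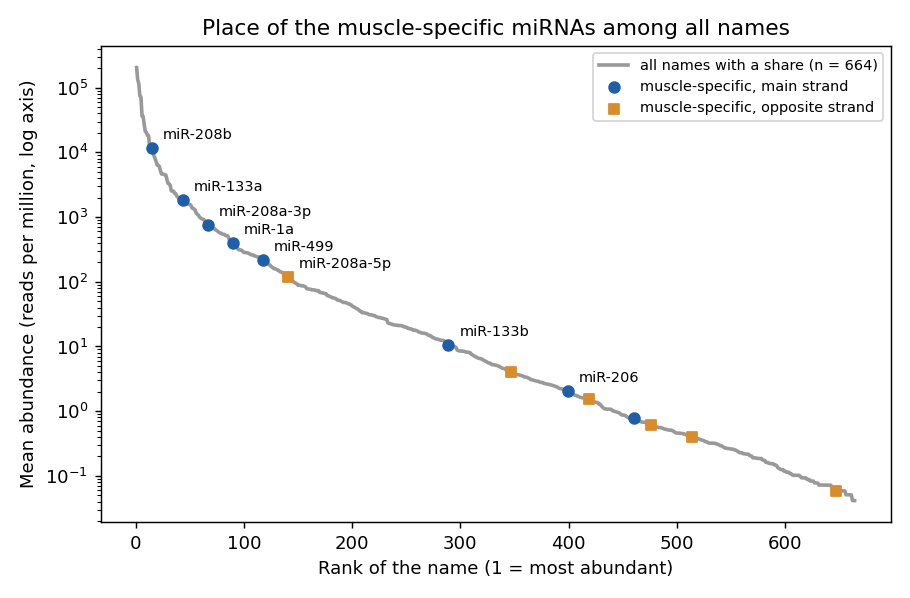
Mean abundance on a log axis against the rank of each name, for the 664 names with a usable share (line) and the muscle-specific main strands (circles) and opposite strands (squares). miR-208b, miR-133a, miR-208a-3p, miR-1a, miR-499 and miR-208a-5p are among the 172 most abundant names, while miR-133b and miR-206 rank 289 and 399.

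Across the table, the muscle-specific names lay on both sides of the median. Of the 15, 6 were among the 172 most abundant of the 689 names, and 8 were below the median of all names. Of the main strands, only miR-206 and miR-1b-3p were below it. The others below it were opposite strands, among them miR-1a-2*, which was given no share. Over all 15 and all 689 names, those without a usable share included, the medians were 4.06 and 4.20 RPM. The former is the level of miR-208b*, an opposite strand. Among the 14 muscle-specific names with a usable share, the middle lay between miR-208b* at 4.06 RPM and miR-133b at 10.6 RPM. Among all 664 such names, it lay between 5.11 and 5.16 RPM. These medians were therefore not read as an order. The most abundant name of the table was miR-22, a cardiac and muscle-enriched miRNA, at 20.5% of the miRNA reads, 17.4-fold above miR-208b. It was followed by miR-143 (13.3%), miR-99b (11.6%), miR-27b (7.46%) and miR-127 (7.15%).

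The opposite strands differed widely in how much of them was left. The hairpins of the myosin-intron miRNAs are printed to show where the strands lie, with both mature strands in capitals (5′ to 3′, RefSeq, GRCm38.p6).
Mir208a: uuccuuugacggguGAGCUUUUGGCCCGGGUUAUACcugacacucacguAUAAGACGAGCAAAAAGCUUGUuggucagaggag
Mir208b: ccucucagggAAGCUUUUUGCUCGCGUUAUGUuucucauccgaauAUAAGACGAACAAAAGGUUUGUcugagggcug
Mir499: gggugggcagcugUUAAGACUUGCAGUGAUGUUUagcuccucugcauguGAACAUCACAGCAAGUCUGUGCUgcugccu

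In Mir208a and Mir208b the second capital stretch is the main strand, and in Mir499 it is the first. miR-208a-5p, the opposite strand of Mir208a, was at 119 RPM and ranked 141, between miR-378b at 120 RPM and miR-146a at 118 RPM. It made up 13.7% of the reads of its hairpin, and the main strand was only 6.29-fold higher. It was the sixth most abundant muscle-specific name, 11.2-fold above miR-133b, a main strand. miR-208b*, the opposite strand of Mir208b, was at 4.06 RPM, 2892-fold below its main strand and 29.2-fold below miR-208a-5p, although its precursor gave the most abundant muscle-specific miRNA. miR-208a-5p and miR-208b* share their seed AGCUUUU and differ at 6 of 22 positions (G1A, G9U, C12U, G15C, A21G and C22U, with the base of miR-208a-5p first).

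The other opposite strands were rare. miR-499* was at 0.607 RPM, 353-fold below miR-499. miR-133a* was at 1.53 RPM, 1215-fold below miR-133a. miR-1a-1* was at 0.401 RPM, 984-fold below miR-1a. Since it comes from 1 copy and the reads of miR-1a from more than 1, this fold is not one between the strands of a single hairpin. miR-1b-5p was at 0.0589 RPM, 13.3-fold below miR-1b-3p, and shared its deposited value with 1 further name, miR-547*. The last member, miR-1a-2*, had a deposited log2 value of -36.38. It is 1 of 25 names at or below -35.64, separated from the other 664 by a gap that ends at -24.52. A share at -35.64 would yield 1 read in 5.37e+10, so these values were not read as shares and miR-1a-2* was given none.

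**Figure D3:**
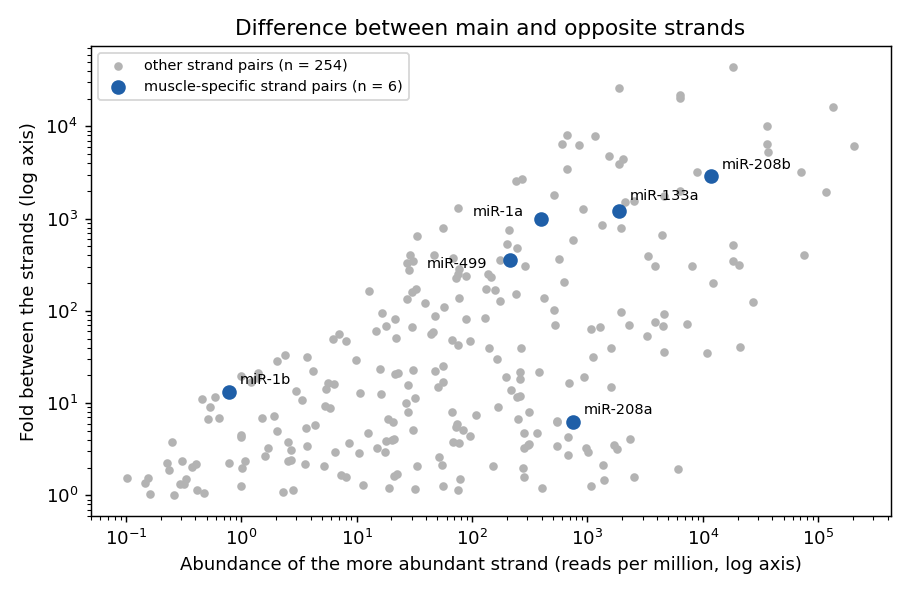
Fold of the more abundant over the less abundant strand, paired by name, against the abundance of the more abundant strand, both on log axes. Shown are 6 muscle-specific pairs and 254 other pairs with both strands in the table. miR-208b, miR-133a, miR-1a and miR-499 lie between 353-fold and 2892-fold, and miR-208a lies at 6.29-fold although its main strand is at 747 RPM.

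The strand difference was compared with that of the 254 other strand pairs in the table, matched by name. Each fold is the more abundant over the less abundant strand. In some other pairs, such as that of miR-30a*, the strand marked with an asterisk was the more abundant one. In 32 of all pairs, that of miR-1a among them, a main strand made by several hairpins was paired with a numbered copy's opposite strand, so some main strands entered more than once. The 254 other pairs had a median difference of 19.3-fold, with quartiles of 3.61-fold and 170-fold, while the 6 muscle-specific pairs had a median of 589-fold. Of the other pairs, 19 had a larger fold than miR-208b, 29 a larger fold than miR-133a, 29 a larger fold than miR-1a, and 45 a larger fold than miR-499. The remaining muscle-specific pairs were nearer the middle, with 165 other pairs above miR-208a and 141 above miR-1b-3p. Without the pairs of numbered copies, the median was 353-fold for 5 muscle-specific pairs and 15.1-fold for 223 other pairs, and 14 of the latter had a larger fold than miR-208b, 20 than miR-133a, 35 than miR-499, 115 than miR-1b-3p and 139 than miR-208a. The fold a pair can show grows with the abundance of its main strand, so abundant pairs were also set apart. In 61 other pairs, the more abundant strand was at least as abundant as miR-208a-3p. Their median was 311-fold, and 10 of them had a smaller fold than miR-208a. In the same 61 pairs, 16 had a larger fold than miR-208b. Without numbered copies, 47 abundant pairs were left, with a median of 306-fold, of which 9 had a smaller fold than miR-208a and 11 a larger one than miR-208b. These counts describe the pooled values and carry no test.

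The label of the cells was set beside miRNAs known from other cell types. The main strands miR-208b, miR-133a, miR-208a-3p, miR-1a and miR-499, all known from the heart, were at 214 to 11734 RPM. The skeletal muscle list, only miR-206 and miR-133b, summed to 12.7 RPM. Of the former, miR-1a, miR-133a and miR-499 are not particular to the heart among striated muscles. These levels were therefore not read as telling heart from skeletal muscle. miRNAs of red blood cells (miR-451 and miR-144) summed to 1.32 RPM and the hepatocyte miRNA miR-122 was at 0.600 RPM. The epithelial list, miR-200a, miR-200b, miR-200c, miR-141 and miR-429, summed to 35.3 RPM, with all 5 names in the table. Of the neuronal list, miR-9 was at 18.1 RPM and miR-124 was not among the names. The 5 names of the white blood cell list summed to 111.0 RPM, of which miR-142-5p gave 74.9 RPM and miR-155 gave 27.1 RPM, while miR-142-3p, miR-223 and miR-150 were at 1.76, 4.20 and 3.07 RPM.

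Lists of other cells of the heart were not at such low levels. Endothelial miR-126-5p was at 4642 RPM and miR-126-3p at 129 RPM. The fibroblast list, miR-199a-3p, miR-199a-5p and miR-214, summed to 4388 RPM, and miR-199a-3p shared its deposited value with miR-199b. The smooth muscle list was led by miR-143 at 133295 RPM, against 694 RPM for miR-145, and its sum of 13.4% of the miRNA reads exceeded the 1.51% of the muscle-specific names. The part of other cells in these levels was not tested, and in such cultures a smaller share of cardiomyocytes and a lower level per cardiomyocyte cannot be told apart. The list of miRNAs abundant in the heart without being specific to muscle had all 11 names in the table, from 86.6 RPM for miR-30e to 204751 RPM for miR-22. It included miR-26a at 36171 RPM, miR-378 at 7224 RPM, let-7c at 3814 RPM, miR-23a at 1153 RPM, miR-24 at 1072 RPM, miR-30d at 541 RPM and miR-30a at 339 RPM. miR-486, at 1942 RPM, was within 1.04-fold of miR-133a. The deposited value of miR-486 was identical to that of miR-3107, so this level may not be particular to miR-486.

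**Figure D4:**
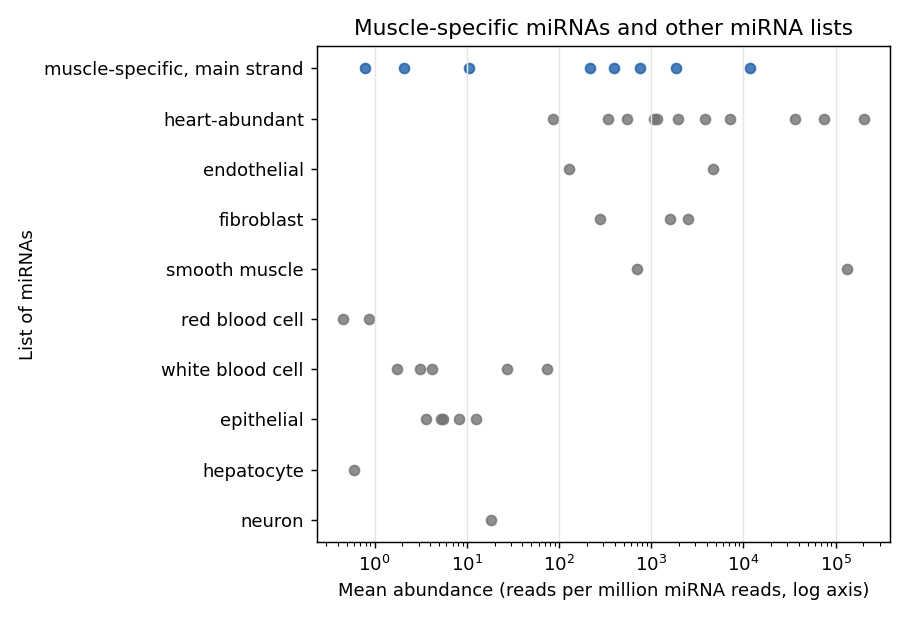
Mean abundance, in RPM on a log axis, of the 8 muscle-specific main strands (top row) and of the names of each list that are in the table. The skeletal muscle list has no row of its own, since miR-206 and miR-133b are in the top row. Each point is 1 miRNA. The muscle-specific main strands spread from 0.782 to 11734 RPM, and the red blood cell and hepatocyte points lie under 1 RPM.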

How the data were processed

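Per the methods, the authors filtered the reads, trimmed adaptors, kept tags of 18 to 30 nt and aligned these to the mouse genome using Bowtie2. The authors then added the counts under each gene ID and used edgeR. The submitters' processing notes list Bowtie2 and DESeq. The build, versions and normalization are not given in the sources used here. The file has 5 columns of values for 689 names and none per sample. The abundance column names no sample or condition. It was read as a mean over all libraries and as the log2 of a share as deposited, since raising 2 to these values gives a total of 0.995. The other 4 columns are the authors' own comparison (2 fold changes, a P value and an FDR) and were not used.

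The log2 values were converted to reads per 1000000 miRNA reads (RPM) and percent, with values under -25 given no share. How libraries were averaged could change each level, and ligation and PCR make shares of reads, not of molecules. Members and lists were chosen with earlier results of these data known. Named are all members, their neighbours in the order, miRNAs sharing a main-strand seed, the 5 most abundant names and the marker lists. Strands were paired by name (X with X*, X-5p with X-3p, and X with a numbered copy's opposite strand). Mature and hairpin sequences came from RefSeq (GRCm38.p6), by miRNA name, and 9 of the 15 members had an entry; loci came from GENCODE M21 (GRCm38). The steps were tested on simulated data. Other log bases, denominators and filters were tried. Python 3.11.15, pandas 2.3.3 and matplotlib 3.10.9 were used.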

Additional observations from a re-analysis of the deposited data

How the results depend on the processing

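Of 39 alternative values for 9 results, 25 stayed within 1.5 times the value given, the limit used because no replicate error is known. The summed share of 1.51% was 2.28% without the 2 most abundant names in the denominator, and the median strand fold of 589 was 353 without pairs of numbered copies, an alternative chosen after seeing the data that leaves out miR-1a. The other changes came from the log base, which the file does not state and the legend of the study's table gives as log10, whereas only base 2 brings the sum over all names near 1 (0.302 for natural logs, 0.00756 for log10). Read as natural logs and as log10, the summed share was 0.181% and 3.87e-05%, the median strand fold 9921 and 1593560000, miR-208b over miR-208a-3p 53.2 and 9425, miR-133a over miR-1a 9.35 and 172, miR-133a over miR-133b 1721 and 28216000, and miR-1a over miR-206 1971 and 38561200. Ranks and directions do not depend on the base by construction. miR-208b ranked 15 in each alternative apart from 13 without the 2 most abundant names, and its share of the muscle-specific sum was lowest in the base 2 reading. With names under -20 left out, 4 muscle-specific names were among the most abundant 25% of names instead of 6. No paired analysis was possible because the file holds no values per sample, and for the same reason no fit leaving out a replicate was run. The unknown depth limits the rare names most.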
